A study of Sus scrofa with 12 samples.

Results

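Solute carriers are the membrane proteins that move amino acids, sugars, metals, vitamins, nucleosides and ions between the cell, its organelles and its surroundings, and they are grouped into families by sequence, each symbol giving the family and then the member. A growing oocyte obtains many of its substrates through gap junctions from the surrounding cumulus cells, and the carriers in its own membrane and organelles handle what it takes up and stores itself. Zinc has a known place in this cell, because the mammalian oocyte accumulates zinc during meiotic maturation and releases part of it at fertilization.

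The genes described here are those whose pig symbol starts with SLC and a number, without the mitochondrial SLC25A family, and whose mean over all libraries was at least 1 FPKM. FPKM counts fragments per kilobase of transcript, scaled to the mapped fragments of the library, so levels are per length and can be set beside each other between genes. Of 299 such symbols in the files, 81 reached this level, 158 were above 0 but under it, and 60 were listed at 0 in every library. Since the level itself chose the genes, the levels are given as a description. Just under the limit were SLC39A9 at 0.933, SLC4A7 at 0.934 and SLC7A8 at 0.999 FPKM, and just above it SLC12A5 at 1.10, SLC35B4 at 1.17 and SLC35E3 at 1.18 FPKM. The letters after the symbol mark 2 of the 81 as something else: SLC4A1AP is an adaptor protein of a carrier and SLC7A6OS is the gene on the opposite strand of one, which leaves 79 carriers.

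The libraries were made by SMART-Seq2, which copies polyadenylated RNA from an oligo-dT primer, from oocytes stripped of cumulus cells after 0h, 22h or 46h of in vitro maturation. There were 4 libraries at each time and 12 in all, each from a pool of 20 oocytes. The ovaries came from prepubertal gilts at a slaughterhouse, the labels give no difference between the groups other than the time in culture, and the study takes 0h for the germinal vesicle stage and 46h for metaphase II. The stage of the pooled oocytes is not in the files, and a pool can hold oocytes of another stage. The series text gives 24h for the middle time where the sample labels give 22h, and the labels are followed here. Nothing states that the replicates came from separate animals or cultures, so p-values measure the spread between these libraries only.

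The oocyte identity was checked with a marker list, of which 9 of 11 genes were matched. Their summed level was between 11931 and 17934 FPKM at 0h, between 15342 and 22602 FPKM at 22h, and between 3899 and 7331 FPKM at 46h. The cumulus and granulosa list, 14 of 16 genes matched, summed to 47.7 to 91.2, 57.6 to 88.3 and 119 to 145 FPKM, most of it from VCAN. STAR (2.06 to 7.58 FPKM), FST (2.51 to 9.58) and PGR (0.97 to 3.35) were also detected in every library, while INHA and LHCGR were listed at 0 in every library and HAS2, FSHR and AMH did not exceed 0.17 FPKM in any. The blood and stroma list summed to 8.68 to 11.2, 6.43 to 20.9 and 21.1 to 24.0 FPKM, most of it from PECAM1, with HBB, CD68 and COL1A1 listed at 0 throughout. Both of these sums were higher in every 46h library than in any 0h library, and their part in the changes below was not tested. The FPKM of a library added up to between 697468 and 802184 in all. Everyday genes can be listed at 0 in these files (ACTB was at 0 in 2 libraries and at most 0.7 FPKM), so a value of 0 is reported only as listed. Replicate 4 at 0h stood apart, with correlations across genes of 0.934 to 0.970 to the other 0h libraries. Replicate 1 at 22h had correlations of 0.961 to 0.967 to the other 22h libraries, its highest below that of 0h replicate 4. Values are listed below in the order of the replicates. Replicate 4 is thus the last of each 0h list, and replicate 1 the first of each 22h list. Several of the results that 0h replicate 4 moved are also given without it.

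The carriers were a small part of the oocyte's RNA with a few very abundant members. Their share of a library's FPKM lay between 0.272 and 0.515% at 0h, between 0.334 and 0.621% at 22h, and between 0.275 and 0.413% at 46h. The median of their means was 5.26 FPKM, against 7.29 FPKM over all 7013 genes that reached the limit. A mean of 100 FPKM or more was found for 5 of them, 23 lay between 10 and 100, and 53 were under 10 FPKM. At every time 68 of the genes averaged at least 1 FPKM. The other 13 fell under 1 FPKM at some time, and SLC35B4, a Golgi carrier for UDP-sugars, exceeded it only at 0h. A gene of this kind passed the limit through the time when it was high.

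SLC46A2 and SLC31A2 together carried 52.2 to 71.5% of the summed FPKM of the 81 genes in every library. SLC46A2 is a relative of the proton-coupled folate transporter, and SLC31A2 is a low-affinity member of the copper transporter family. SLC31A2 was measured at 1423, 1340, 948 and 435 FPKM at 0h, 601, 1414, 1496 and 1534 FPKM at 22h, and 436, 1136, 788 and 776 FPKM at 46h. SLC46A2 was measured at 967, 1077, 946 and 685 FPKM at 0h, 954, 636, 1635 and 1183 FPKM at 22h, and 715, 958, 869 and 780 FPKM at 46h. The times overlapped for both genes, and neither passed the test in any comparison. They ranked 93rd (SLC31A2) and 102nd (SLC46A2) of 7013 genes by mean level.

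Both genes lie on chromosome 1 in the RefSeq annotation of Sscrofa11.1 (the study names Sscrofa11), SLC46A2 at chr1:253559545-253571015 on the minus strand and SLC31A2 at chr1:253795005-253805287 on the plus strand, with 224.0 kb between them. They are the only genes of this stretch at such a level among those named in the files. The next highest, CDC26, a subunit of the anaphase-promoting complex, averaged 94.8, 47.2 and 1.83 FPKM at 0h, 22h and 46h. SLC31A1, the high-affinity copper importer of the plasma membrane, lies in the same stretch and averaged 0.938, 0.503 and 1.09 FPKM, which over the 12 libraries is 0.844 FPKM and under the limit.

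**Figure D1:**
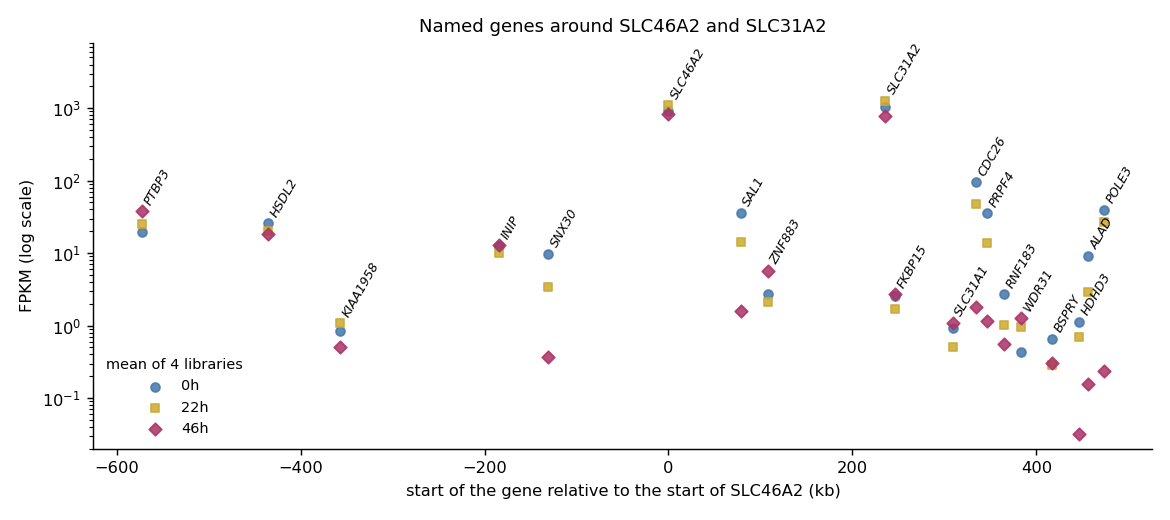
Mean FPKM on a log scale (n = 4 libraries a point) of the named genes around SLC46A2, by the distance of their start from the start of SLC46A2 in kb. SLC46A2 and SLC31A2 stay near 1000 FPKM at 0h, 22h and 46h, while CDC26 goes from 94.8 to 1.83 FPKM.

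Changes were tested with limma on log2(FPKM + 1) over all 7013 genes, and the genes called are those with a Benjamini-Hochberg adjusted p below 0.05 and a change of more than 1.5-fold. Fold changes are on the log2(FPKM + 1) scale, which understates the change of low genes. From 0h to 22h, 9 of the 81 genes rose and 10 fell, where 7.84% of all genes rose and 18.9% fell. Without 0h replicate 4 these counts were 13 and 14, and over all 7013 genes the rises went from 550 to 862 and the falls from 1323 to 1310. SLC10A7, SLC35B4 and SLC38A9 were then among those called lower (-0.72, -0.75 and -0.62) and SLC18A2 higher (0.61). From 22h to 46h, 12 rose and 22 fell, where 9.87% of all genes rose and 32.6% fell. Over the whole maturation, from 0h to 46h, 20 rose and 23 fell, where 16.8% of all genes rose and 39.1% fell. The median log2 fold change of the 81 genes was 0.16, -0.15 and 0.03 in these comparisons, against 0.00, -0.26 and -0.25 over all genes tested. In at least 1 comparison 54 genes (66.7%) were called, against 63.7% of all genes. The split between rises and falls depends on how libraries are scaled. With median-of-ratios scaling the all-gene median from 0h to 46h moved from -0.25 to 0.06, the share of rises among all calls from 30.1 to 47%, and 32 of the 81 genes rose. Under quantile normalization the median moved to 0.37, the share to 61.7%, and 42 rose. No gene called here was called in the other direction under any setting tried.

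Zinc carriers held 6 of the 20 rises from 0h to 46h. The SLC39 proteins move zinc into the cytosol and the SLC30 proteins move it out of the cytosol, to the outside or into organelles. Of 10 zinc carriers, 6 rose, 1 fell and 3 were not called (60% and 10%, where 16.8% of all genes rose and 39.1% fell), with a median log2 fold change of 0.63. Their summed level was 145 ± 31.3 FPKM at 0h, 145 ± 6.30 at 22h and 286 ± 28.7 at 46h (SD, n = 4). The count of rises was 4 with values rescaled to TPM or with no filter on low values, 6 after median-of-ratios scaling, 7 under quantile normalization, and it lay between 4 and 6 when single libraries were left out. The rises over all 7013 genes numbered 1179 as reported, 2055 after median-of-ratios scaling and 2877 under quantile normalization.

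SLC39A8 (ZIP8), an importer of zinc, manganese and iron, was the most abundant zinc carrier at 46h. It was measured at 41.0, 47.0, 24.6 and 14.0 FPKM at 0h, 18.2, 33.7, 47.3 and 48.6 FPKM at 22h, and 81.2, 122, 97.0 and 110 FPKM at 46h. The 0h and 22h values overlapped and all 46h values lay above both. Limma gave a log2 fold change of 1.52 from 22h to 46h (SE 0.356, limma adjusted p = 0.00288), and from 0h to 46h it was 1.79 (adjusted p = 0.00054), or 1.46 without 0h replicate 4, where SLC39A12 was at 1.52.

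SLC30A1, the zinc exporter of the plasma membrane, followed the same course. It was measured at 29.5, 43.6, 19.9 and 7.95 FPKM at 0h, 19.5, 29.5, 22.8 and 30.8 FPKM at 22h, and 56.4, 57.8, 55.0 and 87.0 FPKM at 46h. All 46h values lay above all others. From 0h to 46h the fitted log2 change was 1.51 (SE 0.374, limma adjusted p = 0.00281), or 1.07 without 0h replicate 4.

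SLC39A12, a zinc importer best known from the brain, rose in both intervals. No other of the 81 genes did so as reported, while SLC17A5 and SLC35G1 did so too after median-of-ratios scaling, 5 genes did so under quantile normalization, and none did so as TPM. SLC17A5 also did so without 22h replicate 4. SLC39A12 was measured at 5.47, 4.59, 6.18 and 7.14 FPKM at 0h, 10.6, 12.1, 10.1 and 10.2 FPKM at 22h, and 17.6, 18.5, 15.1 and 18.1 FPKM at 46h. The 3 times did not overlap. On the log2 scale the change was 0.79 (SE 0.153, limma adjusted p = 0.00157) from 0h to 22h, 0.64 (adjusted p = 0.00338) from 22h to 46h, and 1.43 (adjusted p = 1.54e-06) from 0h to 46h. The second step was 0.56 after rescaling to TPM, under the fold limit.

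SLC39A6 and SLC39A10, plasma membrane importers that form a pair, both had their lowest mean at 22h, and different steps passed the thresholds. The difference between the genes was not tested. SLC39A6 was measured at 16.7, 14.1, 15.4 and 16.4 FPKM at 0h, 9.09, 9.80, 11.9 and 8.98 FPKM at 22h, and 14.2, 17.4, 12.9 and 14.7 FPKM at 46h. It was lower at 22h than at either end, with a log2 fold change of -0.61 from 0h (limma adjusted p = 0.00663). That call was lost without 0h replicate 1 and without 22h replicates 1 or 4, at -0.58 to -0.57, and with median-of-ratios scaling, at -0.56. The change from 22h to 46h was 0.53 (adjusted p = 0.00875), under the fold limit, and was called after median-of-ratios scaling, at 0.86. SLC39A10 was measured at 25.9, 29.96, 26.1 and 25.3 FPKM at 0h, 29.0, 26.0, 17.9 and 14.1 FPKM at 22h, and 47.2, 39.1, 31.5 and 46.9 FPKM at 46h. All 46h values lay above the others, and the log2 fold change was 0.93 from 22h (adjusted p = 0.00272) and 0.59 from 0h (adjusted p = 0.0282). The latter was at the fold limit and was lost on leaving out replicate 1, 3 or 4 at 0h or replicate 1 or 4 at 46h (0.52 to 0.57). That call was also lost as TPM (0.49) and with no filter on low values (0.59, limma adjusted p = 0.0507). The exons of SLC39A6 overlap those of ELP2 on the annotation, which averaged 103, 47.1 and 6.33 FPKM, and reads shared between them could not be separated here.

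Of the remaining zinc carriers, SLC30A6, which works with SLC30A5 to load zinc into the secretory pathway, rose by 22h. It averaged 2.74 ± 0.792 FPKM at 0h, 6.38 ± 0.715 at 22h and 6.32 ± 1.2 at 46h (SD, n = 4), with a log2 fold change of 1.0 from 0h to 22h (limma adjusted p = 0.00102). Its partner SLC30A5 averaged 3.31, 3.82 and 3.14 FPKM and was not called. SLC30A4, an exporter into vesicles, was called from 0h to 46h only, at 0.67 (adjusted p = 0.0254), and that call was lost as TPM, with no filter on low values, and without 0h replicate 2 or 46h replicate 1. SLC39A14, an importer of zinc and iron, was the fall, with 3.24, 2.09, 3.09 and 3.98 FPKM at 0h and 1.06, 1.17, 1.22 and 1.10 FPKM at 46h (log2 fold change -0.92, adjusted p = 0.000188, or -0.26 and not called under quantile normalization). SLC30A9, a zinc carrier of mitochondria, averaged 18.6, 11.2 and 15.4 FPKM and was not called.

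**Figure D2:**
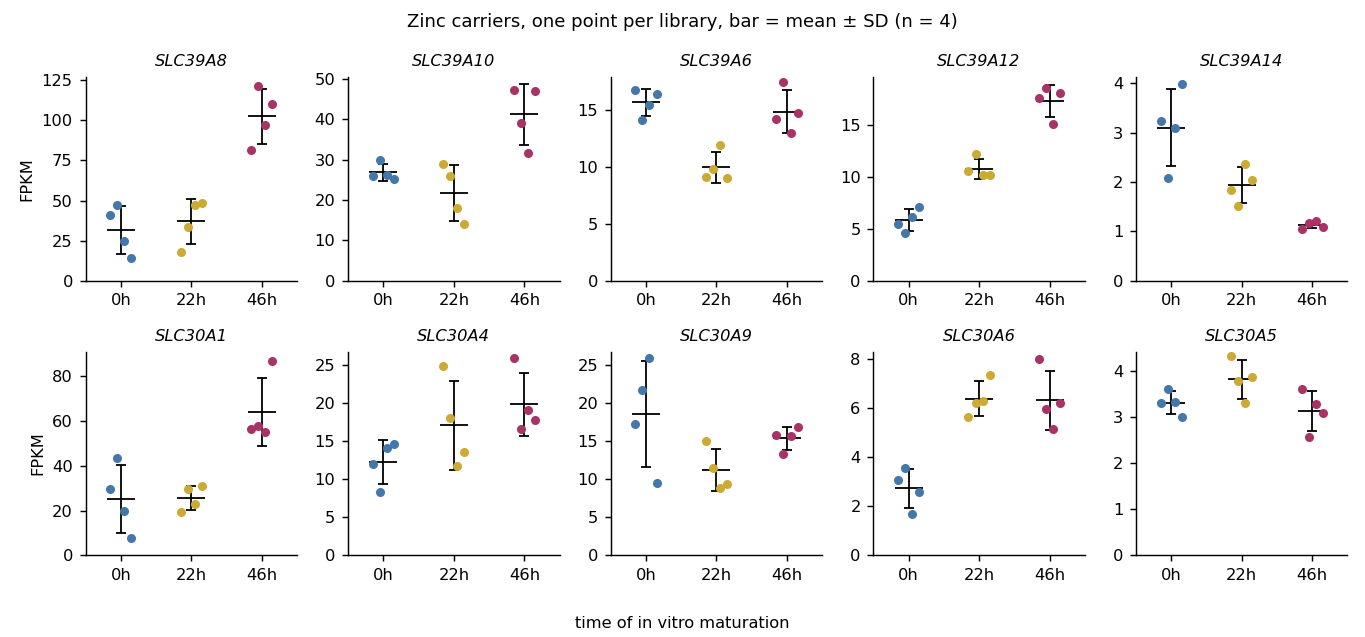
FPKM of the 10 zinc carriers in each library (points) at 0h, 22h and 46h, with the mean and SD (bars, n = 4). SLC39A8, SLC39A10, SLC30A1 and SLC39A12 have all 46h libraries above all others, and SLC39A14 has them at 1.06 to 1.22 FPKM, below the others.

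The largest falls belonged to carriers of other substrates, and several went from a clear level to one near 0. SLC10A7, a member of the bile acid carrier family that acts on cellular calcium, was measured at 214, 241, 177 and 54.4 FPKM at 0h, 125, 121, 134 and 125 FPKM at 22h, and 6.19, 5.0, 3.78 and 6.34 FPKM at 46h. The 46h values were far below all others. From 22h to 46h the fitted log2 change was -4.35 (SE 0.356, limma adjusted p = 2.03e-07). From 0h to 22h it was -0.24 and not called, but -0.72 (adjusted p = 0.00644) without 0h replicate 4.

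SLC35B1, which brings ATP into the endoplasmic reticulum, fell in both intervals. It was measured at 10.6, 11.8, 14.1 and 15.4 FPKM at 0h and 4.68, 2.39, 5.48 and 3.64 FPKM at 22h, and was listed at 0, 0, 0.09 and 0.1 FPKM at 46h. In log2 terms the steps were -1.5 (SE 0.195, limma adjusted p = 8.82e-05) and then -2.23 (adjusted p = 3.85e-07). SLC47A1, the proton exchanger for organic cations (MATE1), had most of its fall before 22h. It was measured at 9.61, 7.85, 11.2 and 20.8 FPKM at 0h and 0.92, 0.83, 0.80 and 1.61 FPKM at 22h, and was listed at 0, 0, 0.1 and 0 FPKM at 46h. By 22h the fitted log2 change had reached -2.64 (adjusted p = 8.01e-06), the largest fall of the 81 genes in that interval. SLC35B1 and SLC47A1 were under 1 FPKM in every 46h library, and so passed the limit on levels through earlier times.

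SLC7A7 and SLC7A3, the cationic amino acid carriers of the SLC7 family that reached 1 FPKM, both fell, SLC7A7 in 2 steps and SLC7A3 in 1. SLC7A7, the light chain that exchanges cationic for neutral amino acids in a heterodimer with SLC3A2, was measured at 79.7, 73.2, 59.1 and 74.8 FPKM at 0h, 29.3, 17.0, 34.5 and 34.7 FPKM at 22h, and 6.99, 7.96, 8.07 and 9.04 FPKM at 46h. In log2 terms its steps were -1.33 (limma adjusted p = 0.000369) and then -1.68 (adjusted p = 1.40e-05), and the 3 times did not overlap. The annotation places OXA1L on the other strand over exons of SLC7A7, and OXA1L took a like course (91.5, 27.3 and 8.77 FPKM). SMART-Seq2 keeps no strand, so reads from the stretch that the exons share cannot be told apart. The extent of that stretch was not measured. SLC7A3 (CAT3) was measured at 23.4, 18.9, 16.8 and 7.15 FPKM at 0h, 5.99, 18.6, 36.4 and 26.5 FPKM at 22h, and 0.98, 1.70, 1.24 and 0.95 FPKM at 46h. It spread widely at 22h and all 46h values lay below the rest, with a log2 fold change of -3.14 from 22h (adjusted p = 3.98e-05). SLC3A2, the heavy chain, was near the limit, averaging 1.04, 2.36 and 0.775 FPKM, and its call from 22h to 46h was lost on leaving out any of 7 libraries.

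Other falls came in several classes. SLC28A3, a concentrating nucleoside carrier and the only nucleoside carrier of the 81, averaged 14.3 ± 1.60, 8.63 ± 0.942 and 1.43 ± 0.511 FPKM (SD, n = 4), with a log2 fold change of -2.68 from 0h to 46h (limma adjusted p = 9.55e-09). SLC8B1, the sodium-calcium exchanger of the mitochondrial inner membrane, averaged 8.37, 3.30 and 0.485 FPKM, with -2.62 from 0h to 46h (adjusted p = 3.48e-07). SLC38A8, a sodium-coupled glutamine carrier, averaged 6.90, 6.54 and 0.390 FPKM and had all of its called fall after 22h. SLC36A3, of the amino acid class, averaged 6.28, 2.09 and 1.11 FPKM. Its log2 fold change was -1.26 from 0h to 22h (limma adjusted p = 0.00031) and -1.80 from 0h to 46h (adjusted p = 1.68e-06). The potassium-dependent sodium-calcium exchanger SLC24A3 (log2 fold change -1.87), the chloride-bicarbonate exchanger SLC26A3 (-1.63) and the serotonin carrier SLC6A4 (-1.24) fell over the whole maturation as well, SLC6A4 at -0.57 and not called under quantile normalization. SLC2A8, an intracellular glucose carrier, fell at -1.40 (adjusted p = 0.0047), or -0.75 and not called under quantile normalization, and its step after 22h was lost without 22h replicate 3 or 46h replicate 4.

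**Figure D3:**
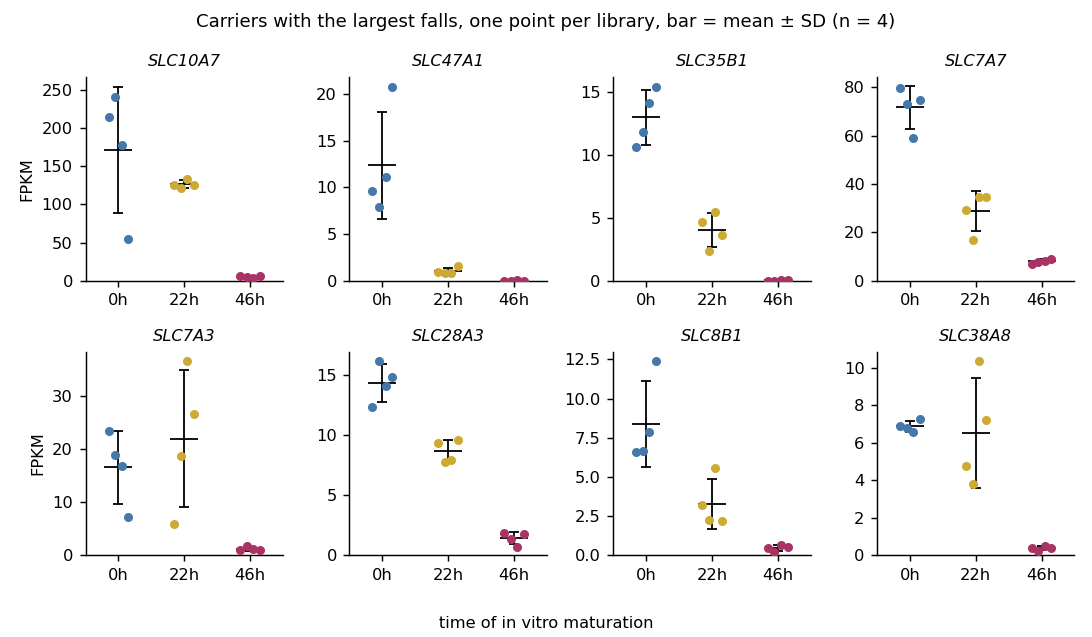
FPKM in each library (points) at 0h, 22h and 46h of the 8 carriers with the largest falls, with the mean and SD (bars, n = 4). SLC10A7, SLC7A3 and SLC38A8 fall only after 22h in the test, and SLC47A1 falls mostly before it.

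Outside the zinc group, the largest rises from 0h to 46h were those of SLC17A3 and SLC17A5. SLC17A5 (sialin), which exports sialic acid from lysosomes, was measured at 44.2, 33.8, 31.2 and 24.2 FPKM at 0h, 55.6, 87.4, 78.1 and 95.5 FPKM at 22h, and 93.4, 110, 126 and 115 FPKM at 46h. All 22h values lay above those at 0h, and 1 of them above the lowest at 46h. The log2 fold change was 1.22 (SE 0.208, limma adjusted p = 0.000626) from 0h to 22h and 1.73 (adjusted p = 5.19e-06) from 0h to 46h. SLC35A1, which brings CMP-sialic acid into the Golgi, rose after 22h: it was measured at 13.2, 12.5, 9.41 and 5.02 FPKM at 0h, 4.78, 10.1, 9.23 and 10.8 FPKM at 22h, and 19.99, 21.3, 23.6 and 26.5 FPKM at 46h. All its 46h values lay above the rest, with a log2 fold change of 1.34 from 22h (adjusted p = 0.00115).

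Within the SLC35 family, whose known members mostly carry nucleotide sugars into the Golgi and endoplasmic reticulum, 3 of 10 rose and 2 fell from 0h to 46h (30% and 20%, where 16.8% and 39.1% of all genes did). After median-of-ratios scaling 6 rose and 2 fell, and under quantile normalization 7 rose and 1 fell. The falls as reported include SLC35B4, which passed the limit on levels through 0h alone. SLC35F4 was measured at 30.4, 33.4, 33.8 and 44.5 FPKM at 0h, 30.1, 29.1, 24.2 and 30.6 FPKM at 22h, and 63.8, 72.9, 57.0 and 60.2 FPKM at 46h, with a log2 fold change of 1.13 after 22h (limma adjusted p = 4.72e-05). SLC35G1 rose before 22h, from 15.99 ± 1.42 to 28.7 ± 4.26 FPKM (SD, n = 4), at 0.80 (adjusted p = 0.00181). The substrates of these 2 proteins are less settled than those of SLC35A1. SLC35B2, the sulfate donor carrier of the Golgi, was called from 0h to 22h (0.69) but lost that call on leaving out any of 6 libraries, and its exons overlap HSP90AB1, at 228 FPKM.

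SLC7A11, the cystine-glutamate exchanger that supplies cysteine for glutathione, rose while its relatives SLC7A7 and SLC7A3 fell. It was measured at 8.76, 8.80, 8.74 and 7.96 FPKM at 0h, 6.11, 8.46, 7.17 and 7.69 FPKM at 22h, and 16.4, 17.7, 13.6 and 17.3 FPKM at 46h. The earlier times overlapped and the last stood above both, with a log2 fold change of 1.04 from 22h (SE 0.145, limma adjusted p = 3.98e-05). SLC4A4, a sodium-bicarbonate cotransporter, averaged 8.26 ± 0.709, 11.02 ± 2.84 and 18.5 ± 2.6 FPKM (SD, n = 4) and rose at 1.07 from 0h to 46h (adjusted p = 0.000187).

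The phosphate group held genes that moved in each direction. From 0h to 46h, 2 of 4 rose (SLC17A2 and SLC17A3) and 1 fell (SLC20A1), where 16.8% of all genes rose and 39.1% fell. The SLC17A2 rise was lost as TPM, with no filter on low values, with the replicate block and on leaving out any of 6 libraries. SLC17A3, a relative of sialin in the phosphate and urate branch of the family, averaged 6.68, 10.2 and 23.2 FPKM and rose at 1.78 from 0h to 46h (limma adjusted p = 0.000878), or 1.38 without 0h replicate 4. Its exons overlap those of SLC17A2, so the reads may be shared. The neighbouring SLC17A1 dipped: it was measured at 128, 155, 113 and 95.9 FPKM at 0h, 55.0, 57.9, 66.6 and 84.8 FPKM at 22h, and 98.4, 143, 104 and 114 FPKM at 46h. Its 22h values lay below all others, at -0.88 from 0h (adjusted p = 0.0038) and 0.80 to 46h (adjusted p = 0.00389). SLC20A1, the widely expressed phosphate importer PiT1, fell from 15.9 to 7.93 FPKM by 22h (-0.90, adjusted p = 0.000847). From 0h to 46h it was at -1.18, or -0.54 and not called under quantile normalization, where 2 of the 4 rose and none fell.

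A few genes turned at 22h. SLC1A5 (ASCT2), the glutamine carrier and the most abundant of the 81 after SLC31A2 and SLC46A2, was measured at 158, 86.9, 153 and 146 FPKM at 0h, 220, 201, 281 and 251 FPKM at 22h, and 147, 121, 207 and 105 FPKM at 46h. It was highest at 22h, with a log2 fold change of 0.83 from 0h (limma adjusted p = 0.0161) and -0.75 to 46h (adjusted p = 0.0177), the latter lost without 22h replicate 3 or 46h replicates 2 or 4, and at -0.39 with median-of-ratios scaling. SLC43A3, which carries purine nucleobases and stands in the amino acid class here by its family, was measured at 4.76, 3.66, 8.17 and 21.3 FPKM at 0h, 17.9, 17.3, 21.3 and 19.8 FPKM at 22h and 7.19, 6.80, 12.8 and 8.76 FPKM at 46h. Both of its calls were lost on leaving out single libraries. Without 0h replicate 4, the highest at 0h, it was at 1.67 from 0h to 22h (limma adjusted p = 0.000224), and from 0h to 46h it went from 0.16 to 0.62 (adjusted p = 0.0365) and was called. SLC8A1, the plasma membrane sodium-calcium exchanger, was measured at 12.8, 10.7, 12.5 and 14.2 FPKM at 0h, 5.29, 3.37, 5.94 and 4.44 FPKM at 22h, and 7.76, 6.76, 8.41 and 7.26 FPKM at 46h. The 3 times did not overlap, with -1.25 to 22h (adjusted p = 0.000108) and 0.59 after it (adjusted p = 0.00958), the second step at the fold limit and lost without 22h replicates 2 or 4 or 46h replicates 1 or 3. Its lower level at 46h than at 0h (-0.66, adjusted p = 0.00308) was at -0.30 and not called after median-of-ratios scaling. Under quantile normalization that change was at -0.01.

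**Figure D4:**
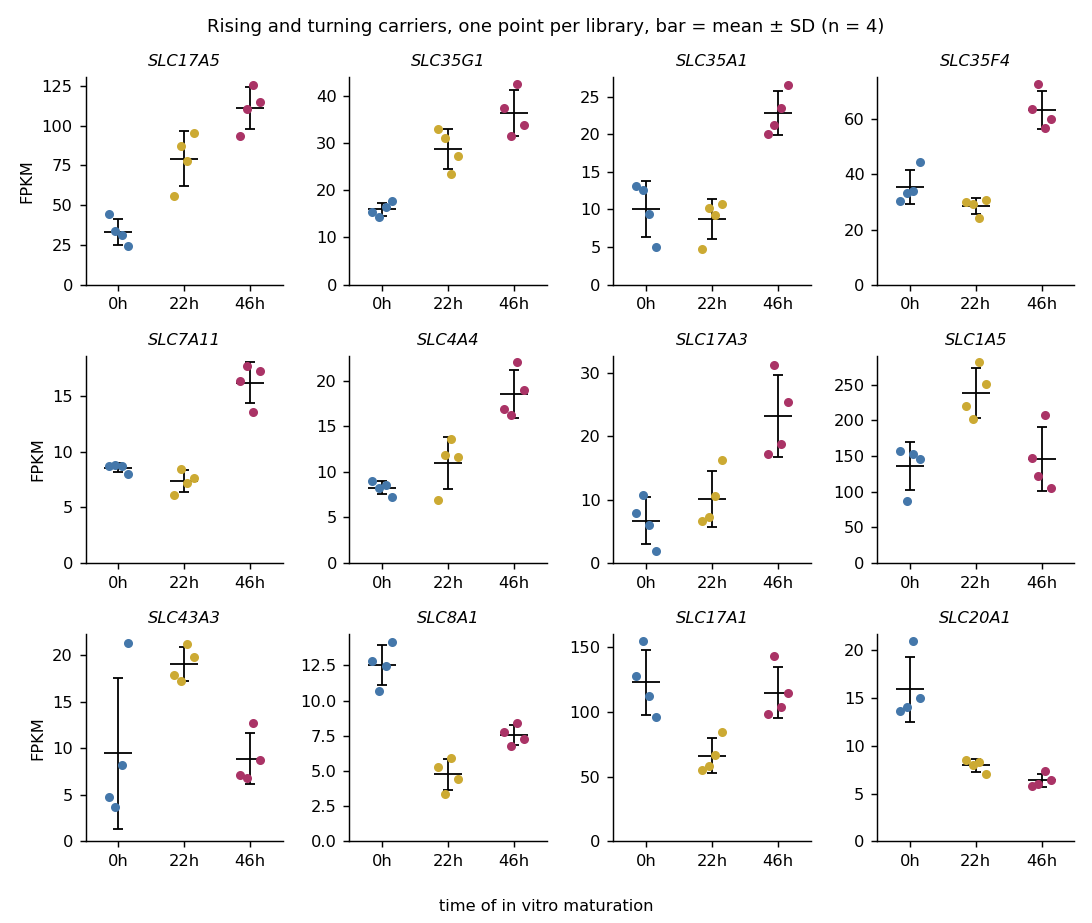
FPKM in each library (points) at 0h, 22h and 46h of 12 carriers that rose, turned at 22h or fell early, with the mean and SD (bars, n = 4). SLC17A5 and SLC35G1 are already higher at 22h, SLC35A1, SLC35F4 and SLC7A11 only at 46h, and SLC17A1 and SLC8A1 are lowest at 22h.

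Other substrate classes split from 0h to 46h as follows, where 16.8% of all genes rose and 39.1% fell. The amino acid and ion classes were near these shares. All genes tested gave 1179 rises and 2743 falls, 2055 and 2318 after median-of-ratios scaling, and 2877 and 1789 under quantile normalization, and counts under a scaling are to be read beside these. Of 15 amino acid and peptide carriers 3 rose (SLC7A11, SLC15A4 and SLC66A2) and 5 fell (20% and 33.3%), with a median of 0.08, with 4 and 5 after median-of-ratios scaling and 7 and 4 under quantile normalization. The SLC15A4 rise was lost without 0h replicate 4 or 46h replicate 3. Of 14 ion carriers 2 rose and 5 fell (14.3% and 35.7%), with a median of -0.14. After median-of-ratios scaling 5 rose and 3 fell, with a median of 0.15, and under quantile normalization 7 rose and 3 fell, with a median of 0.52. Among the rises, that of SLC26A6 was lost as TPM, with no filter on low values, and without 0h replicate 3 or 46h replicate 3. Among the falls, that of SLC9A9 was lost without 0h replicate 4 or 46h replicates 1 or 3. Of 3 carriers of iron, copper, magnesium and heme none rose and 1 fell (SLC41A3), with 1 and 1 after median-of-ratios scaling and 1 and none under quantile normalization. Of 6 carriers placed by family symbol in the class of lipids, acyl-CoA, bile acids and organic ions, none rose and 4 fell, with a median of -1.09. The falls include SLC10A7, described above as acting on cellular calcium, so the count is not one of proven lipid or bile acid carriers. After median-of-ratios scaling 1 rose and 3 fell, as under quantile normalization (median -0.41). Without 0h replicate 4 none rose and 3 fell, with a median of -0.88, and SLC22A23 was lost at -0.54. For the 5 sugar carriers 1 rose (SLC45A2, lost without 0h replicate 2 or 46h replicate 2) and 1 fell (SLC2A8), and 3 rose and none fell under quantile normalization. For the 5 carriers of the SLC6 and SLC18 families none rose and 2 fell, SLC6A4 and the proline carrier SLC6A20. In this class 2 rose and 1 fell after median-of-ratios scaling, and 2 rose and none fell under quantile normalization. The SLC6A20 call was lost on leaving out any of 6 libraries. For the 4 carriers of vitamins and choline 1 was called higher, the thiamine carrier SLC19A2 at 0.62 (limma adjusted p = 0.00336), and that call was lost as TPM (0.55), without 0h replicate 4 (0.53) and without 46h replicates 1 or 3 (0.57 and 0.56). Its call from 0h to 22h was lost without 0h replicate 4 (0.51) and without 22h replicate 3 (0.57). No SLC16 gene named in the files reached 1 FPKM as a mean over the 12 libraries. These are the monocarboxylate carriers, without SLC16A1, which was not analysed here. The highest, SLC16A13, averaged 1.44, 0.748 and 0.0875 FPKM at 0h, 22h and 46h, the lactate and pyruvate carrier SLC16A7 averaged 0.273, 0.40 and 0.615 FPKM, and SLC16A3 was listed at 0.

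**Figure D5:**
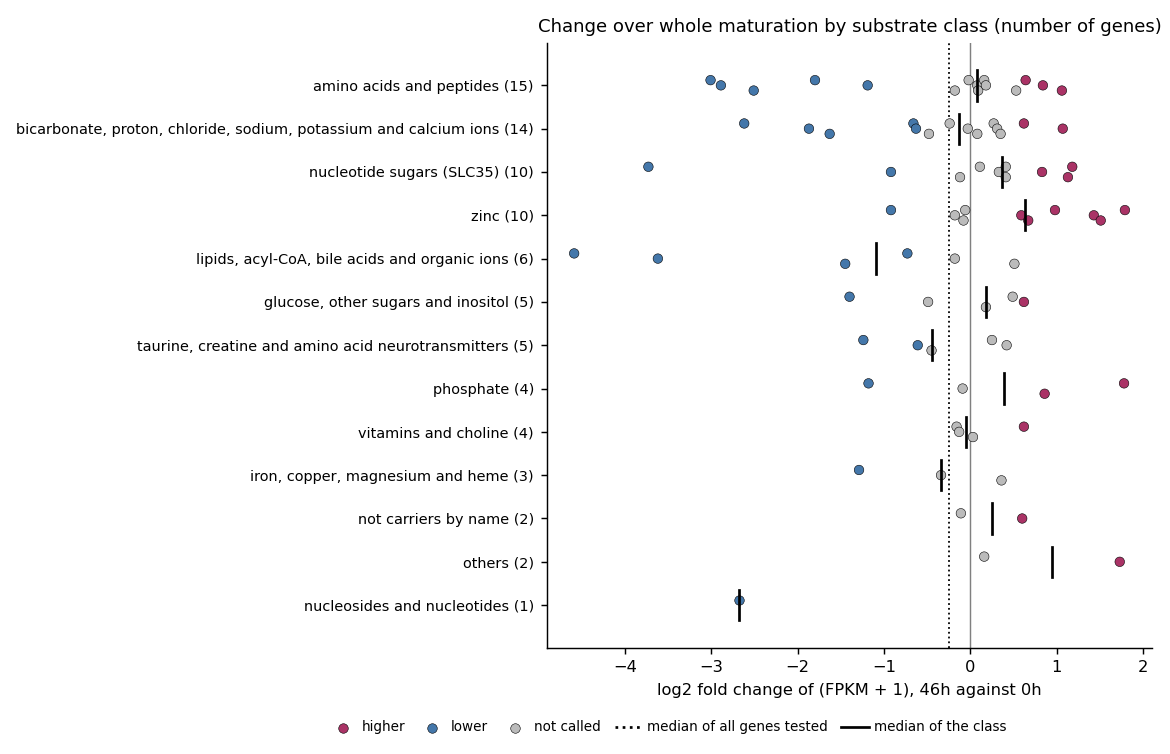
Log2 fold change of (FPKM + 1) from 0h to 46h for each of the 81 genes (points), by substrate class, coloured by the call, with the class median (solid line) and the median of all genes tested (dotted line, -0.25). Classes were set by family symbol. The zinc class has 6 of 10 points called higher. The class of lipids, acyl-CoA, bile acids and organic ions has 4 of 6 called lower.

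Of 36 carriers with a textbook part in oocytes or embryos, 13 were among the 81 and 16 were listed under 1 FPKM. The latter include SLC6A9, the glycine carrier of cleavage embryos, listed at 0 throughout, and SLC38A1, a glutamine carrier, at 1.23, 0.85 and 0.055 FPKM. SLC2A1, SLC2A3, SLC7A6, SLC16A1, SLC22A5, SLC19A1 and SLC5A3 had no matching name and were not analysed here. SLC6A6, the taurine carrier, averaged 1.80, 2.02 and 1.05 FPKM and was not called in any comparison. Its change from 22h to 46h, -0.56 (limma adjusted p = 0.00451), was just under the fold limit, and it was called with a pseudocount of 0.1 (-0.90), as TPM (-0.68) and without 46h replicates 1 or 3 (-0.59 and -0.62).

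Carriers with other names were counted from a separate list. Of 22 tested, 2 rose and 13 fell from 0h to 46h (9.09% and 59.1%, where 16.8% and 39.1% of all genes did), with a median log2 fold change of -0.80. CNNM2, a magnesium transport protein, averaged 582, 134 and 60.7 FPKM (-3.14 from 0h to 46h, limma adjusted p = 2.67e-06), and MFSD1, a lysosomal dipeptide exporter, rose from 67.0 to 197 FPKM (1.56, adjusted p = 8.10e-05). Of 9 ABC transporters tested 1 rose and 3 (33.3%) fell, and of 14 ion pumps and carrier partners 2 rose and 3 fell, among them LAPTM4A at 241, 361 and 657 FPKM.

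The last bases of the transcripts were searched for the letters TTTTAT and TTTTAAT, the form in DNA of the cytoplasmic polyadenylation element, a sequence through which oocytes lengthen or shorten the poly(A) tail of stored mRNAs. Oligo-dT priming depends on that tail, and tail length and RNA amount cannot be told apart here. Either sequence stood, on the transcript's strand, in the last 150 bases of the longest RefSeq transcript of 27 of 78 matched genes (34.6%), against 29.1% of 5702 genes tested. The share was 8 of 19 (42.1%) among those that rose from 0h to 46h, where it was 39.4% of all rising genes, and 4 of 22 (18.2%) among those that fell, where it was 20.7% of all falling genes. Among those not called it was 15 of 37 (40.5%), close to the share among the rising ones, where it was 32.4% of all genes not called. TTTTAAT can overlap the polyadenylation signal AATAAA. The sites below are those of 5 of these 8 rising genes, and of the abundant SLC46A2 and the falling SLC7A3 beside them, in Sscrofa11.1, with the match in capitals.
SLC39A10 (chr15:99724557-99724586, plus strand): gtgtcaTTTTATgtatgttcctaatgctta
SLC39A12 (chr10:44320945-44320974, plus strand): caaatgtaataaagtctagTTTTAATgtga
SLC35A1 (chr1:55895666-55895695, plus strand): acttttTTTTAATaaagtatgtttaactgt
SLC35F4 (chr1:186687817-186687846, minus strand): actgttTTTTATtttcgattttttgatttt
SLC7A11 (chr8:88690505-88690534, plus strand): tacttaTTTTAATagaaaatattttaagtg
SLC46A2 (chr1:253559586-253559615, minus strand): acttatTTTTATagcctattttacgactat
SLC7A3 (chrX:56937122-56937151, minus strand): tctactTTTTAATtgtatctgtagctgctt
The match is a description of the letters and no test of use. SLC39A8, SLC30A1 and SLC17A5 rose and held neither form in this window, and SLC7A3 fell and held one.

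Of the 78 genes with a position, 22 had exons that overlap another gene, 4 of them on the same strand. The rising SLC39A10, SLC30A6 and SLC35F4 are among the 22, each with a gene on the other strand (DNAH7, NLRC4 and LOC110262255). Reads shared with these genes could not be separated. Among the 56 without an overlap the calls from 0h to 46h were 13 rises and 17 falls, where 16.8% of all genes rose and 39.1% fell.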

How the data were processed

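The 12 files held an FPKM value per Ensembl gene, 31908 in each. The authors trimmed reads with Trim Galore, aligned them with STAR to Sscrofa11, counted with HTSeq and computed the deposited FPKM with RSEM, as their methods and processing notes say. Values are rounded to 2 decimals, no whole reads could be recovered, and the depth is unknown. Symbols came from a reference gene table (15029 named). Genes averaging 1 FPKM or more were fitted on log2(FPKM + 1) with limma 3.58.1 in R 4.3.3 (lmFit, eBayes with trend, stage as the only factor, 12 libraries), since a count test does not suit FPKM. Tests were two-sided, adjusted over 7013 genes. The method was tested on simulated data. Summaries used Python 3.11.15 and pandas 2.3.3. Positions and sequences came from RefSeq Sscrofa11.1, matched by symbol for 78 genes.

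The genes, the substrate classes and the other lists were chosen with earlier results of these data known. Named genes are the most abundant of each class, the 5 largest called rises and falls of each comparison, the textbook carriers, and family members called in opposite directions. Others are named from class lists and after their values were seen. The class of SLC4A1AP and SLC7A6OS was set after the files were read.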

Additional observations from a re-analysis of the deposited data

Results flagged for a closer look

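Each of the 44 named genes was tested at each time for 1 library far from the other 3 by Dixon's ratio, in 132 groups of 4 libraries, where chance alone flags about 1 in 20, and 11 were flagged. The fourth 0h library accounts for 4 of them: SLC2A8 at 18.35, SLC35B2 at 7.59, SLC36A3 at 5.14 and SLC7A11 at 7.96 FPKM. The second 0h library was low for SLC1A5, at 86.94 FPKM, and high for SLC39A10, at 29.96 FPKM. At 22h, SLC31A2 was low in the first library at 600.99 FPKM, SLC6A6 high in the third at 2.32 FPKM, and SLC47A1 high in the fourth at 1.61 FPKM. At 46h, SLC30A1 was high in the fourth library at 86.95 FPKM, and SLC47A1 was at 0.1 FPKM in the third and listed at 0 in the others. Without the first 22h library SLC31A2 fell from 22h to 46h at -1.0 on the log2 scale (limma adjusted p = 0.0482).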

How the results depend on the processing

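No gene called in the report was called in the other direction under any setting, but counts moved with the scaling and the filter (5 FPKM leaves 42 of the 81 genes). Genes rising from 0h to 22h numbered 17 with quantile normalization, where those over all genes went from 550 to 1048. From 22h to 46h, 22 rose after median-of-ratios scaling, 30 rose under quantile normalization, where the rises over all genes went from 692 to 1416 and 1971, and 12 fell with a filter of 5 FPKM and 10 with quantile normalization (falls over all genes 2283 as reported, then 1419 and 1340). From 0h to 46h, 32 rose after median-of-ratios scaling, 42 rose under quantile normalization (over all genes 1179 as reported, then 2055 and 2877), and 10 fell with the 5 FPKM filter and 12 with quantile normalization (over all genes 2743, then 1575 and 1789). The share of rises among all calls from 0h to 46h was 30.1%, and 47% and 61.7% with these scalings. The median of the 81 genes was 0.30 from 0h to 22h with quantile normalization; from 22h to 46h it was -0.21 with a pseudocount of 0.1, 0.04 with the 5 FPKM filter, 0.09 after median-of-ratios scaling, 0.35 under quantile normalization and -0.23 as TPM; from 0h to 46h it was 0.07, 0.26, 0.31, 0.66 and -0.02 in the same order. SLC30A5 from 0h to 46h turned to 0.63 with quantile normalization; the cause was not tested. Leaving out single libraries gave 6 to 13 rises and 9 to 14 falls from 0h to 22h, 9 to 14 and 16 to 23 from 22h to 46h, and 15 to 20 and 20 to 24 from 0h to 46h, with medians of 0.07 to 0.16, -0.18 to -0.10 and -0.04 to 0.10. Limits of 0.5 and 2 FPKM would give 102 and 65 genes. The labels tie the replicate numbers to no batch or animal, and correlations between libraries of the same number ran from -0.466 to 0.381. Between 22h and 46h the same-number correlation was the highest for replicates 1, 3 and 4 (0.381, 0.211 and 0.127). The replicate block kept 19 of 19, 33 of 34 and 42 of 43 calls, losing SLC9A7 and SLC17A2. The depth is unknown, so values under about 1 FPKM are uncertain.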
